A study of Mus musculus with 10 samples.

Results

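Tryptophan is broken down along the kynurenine pathway, and the tail of that pathway is 1 of the routes by which cells make NAD, the redox coenzyme that sirtuins, PARP enzymes and CD38 also use up. The genes described here are 10 members of this system. Ido1, Afmid, Kynu, Kmo, Haao and Qprt encode the enzymes that carry tryptophan through kynurenine to quinolinate and on to the NAD precursor nicotinic acid mononucleotide. Nampt makes the precursor of the salvage route, Nadsyn1 makes NAD by amidation, Nadk turns NAD into NADP, and Cd38 is a surface glycohydrolase that consumes NAD. They are genes of this system named with earlier results of these data known, and their rows were 10 of the 54532 genes in the deposited table. In macrophages the first enzyme, IDO1, is known as a target of interferon-gamma, salvage through NAMPT as a main source of NAD, and CD38 as an NAD-consuming enzyme of activated cells.

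The RNA came from primary peritoneal macrophages of mice, cells that engulf debris and microbes in the belly cavity. The groups were young wild-type mice (4 libraries, replicates A, B, C and E), aged wild-type mice (3 libraries, replicates 3, 4 and 6) and aged Trem1-/- mice, which lack the myeloid activating receptor TREM1 (3 libraries, replicates 1, 2 and 3). There was no young Trem1-/- group. Age in months, sex, batch, the isolation step and the deleted part of Trem1 are not given, nor whether each library is a mouse of its own, so a p-value here reflects only library-to-library spread that may be technical. Trem1 itself was read in every library, with 10 to 21 reads in the young, 14 to 50 in aged wild-type libraries and 12 to 132 in those labelled Trem1-/-, so its count does not check that label.

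Values are normalized counts, read counts divided by 1 size factor per library, and libraries held 2663744 to 5603498 reads. Changes are log2 fold changes on log2(normalized count + 1) with their standard error (SE), from limma fitted to 11506 genes with a mean of at least 10. A gene was called at an adjusted p under 0.05. In aged against young wild type, 1647 genes were called higher (14.3%) and 2190 lower (19.0%). In libraries labelled Trem1-/- against aged wild type, 1327 were called higher (11.5%) and 785 lower (6.82%). The noncoding RNA Gm26917 took 8.38% to 12.9% of reads in aged wild-type libraries and 5.70% or less in all others, and mitochondrial transcripts 3.17% to 5.26% and 1.19% to 2.39%. When scaling left out these, immunoglobulin and haemoglobin genes, these splits became 2753 to 1413 and 736 to 1874, and the median of all tested genes moved by 0.19 and -0.22. Both comparisons use the same aged wild-type libraries, so a gene high in those will tend to move in opposite directions in them.

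The libraries also differed in cell type markers. The summed normalized count of 12 macrophage markers was 75261 to 81629 in young, 24630 to 39037 in aged wild-type and 64707 to 82520 in Trem1-/- labelled libraries. That of 11 B cell markers, each read in all 10 libraries, was 1341 to 2962, 6749 to 11915 and 2851 to 6496. Against young, 9 of 12 macrophage markers were called lower and 10 of 11 B cell markers higher in aged wild type. Against aged wild type, 8 of 12 macrophage markers were called higher and 3 of 11 B cell markers lower in Trem1-/- labelled libraries. The sums of 12 T and NK cell markers were 40.7 to 87.2, 259 to 426 and 60.3 to 102, with Gzma at 0 in 7 libraries. Dendritic cell sums overlapped (167 to 272, 225 to 296 and 188 to 369). Mast cell sums (45.3 to 1203, 874 to 1993 and 121 to 1523) and mesothelial and fibroblast sums (11.7 to 520, 654 to 736 and 22.5 to 516) were high in young replicate C and Trem1-/- labelled replicate 2 as well as in aged wild type. Erythroid sums reached 23863 in aged wild-type replicate 4 (9.30 to 760, 476 to 23863 and 17.2 to 58.5), and neutrophil sums stayed at 64.4 or below with Ly6g at 0 in 9 libraries. Eosinophil sums (46.5 to 72.7, 214 to 534 and 84.1 to 250) came with Prg2 at 0 in all 10. Nearly all of that sum was Il5ra (37.2 to 64.0, 212 to 526 and 76.9 to 247). Siglecf did not rise with age (2.32 to 3.69, 0.898 to 3.84 and 3.44 to 12.3). In these bulk libraries, fewer cells of a type and less RNA per cell cannot be told apart.

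Of the 10 members, 7 had enough reads for the test. In aged against young wild type, 4 of these 7 rose (Kynu, Kmo, Haao and Cd38) and 1 fell (Nadk), beside 14.3% and 19.0% of all tested genes. The median log2 change of the 7 was 0.98 and that of all tested genes -0.02. Nampt and Nadsyn1 were not called. In libraries labelled Trem1-/- against aged wild type, Kynu, Kmo and Haao fell and Nadk rose, beside 6.82% and 11.5% of all tested genes, and the medians were -0.50 and 0.02. Against young wild type, the Trem1-/- labelled libraries had 0 of 7 members called by limma, edgeR or DESeq2, and 0 at an unadjusted p under 0.05 by any of them, beside 0.921% of genes called by limma, 0.591% higher and 0.33% lower.

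**Figure D1:**
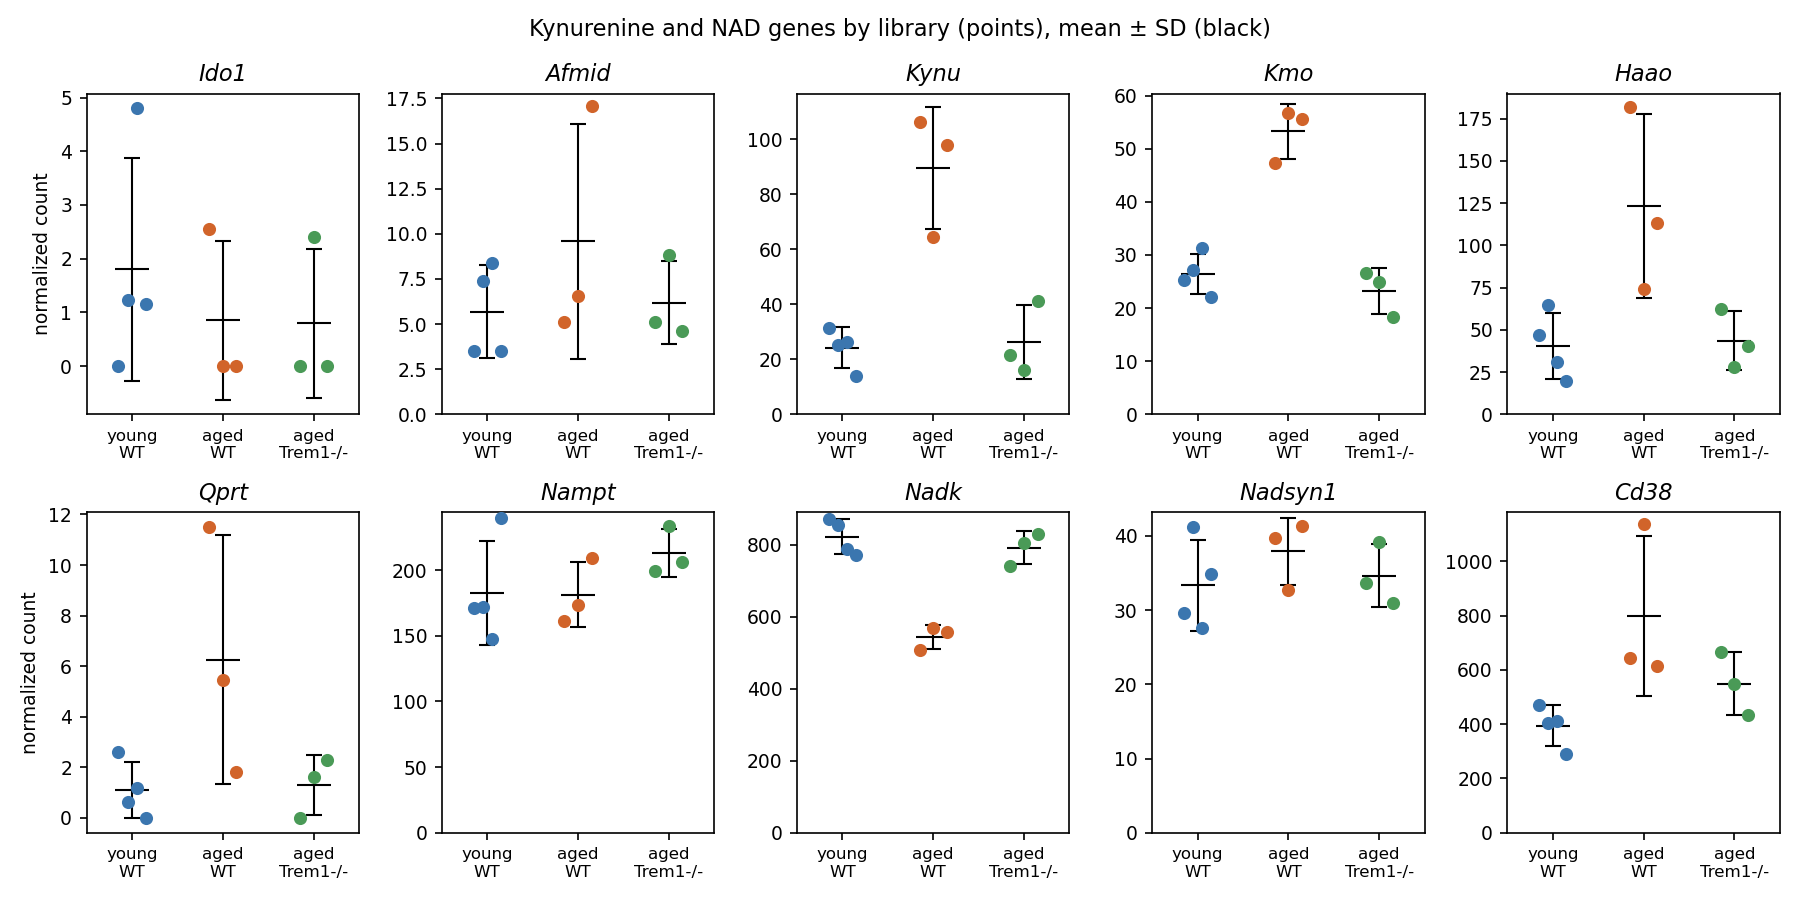
Normalized counts (y axis, linear) of the 10 members in young wild-type, aged wild-type and aged Trem1-/- labelled libraries (x axis), 1 coloured point per library with the mean ± SD in black. Kynu, Kmo and Haao stand above both other groups in all 3 aged wild-type libraries and Nadk stands below, while Nampt and Nadsyn1 overlap.

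The pathway opens with Ido1, which encodes the interferon-inducible dioxygenase that opens the tryptophan ring. Ido1 (ENSMUSG00000031551.12, GRCm38 chr8:24584136-24597009, minus strand, 11 merged exons) was barely read. It had 7 reads over the 4 young libraries, 2 over the aged wild-type and 3 over the Trem1-/- labelled libraries, and 0 in 5 of the 10. A floor of 3 reads in 1 library corresponds to 1.85 to 3.84 normalized counts, so no difference in Ido1 was detectable at this depth.

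Afmid encodes the formamidase that releases kynurenine from its formyl precursor. Afmid (ENSMUSG00000017718.15, chr11:117825924-117839908, plus strand) was read at 3 to 19 reads per library. Its normalized counts were 3.49, 7.39, 8.41 and 3.49 in young replicates A, B, C and E, 5.12, 6.55 and 17.1 in aged wild-type 3, 4 and 6, and 5.11, 8.81 and 4.59 in Trem1-/- labelled replicates 1, 2 and 3. All groups overlapped (exact two-sided permutation p = 0.457 for aged against young and 0.50 for Trem1-/- labelled against aged). Its count is uncertain: 44.2% of its exonic bases lie in exons of the same-strand gene model Gm20708 and 83 bases in the opposite-strand Tk1. Gm20708 itself had 0 reads in every library. How reads in shared exons were assigned, and whether counting used the strand, is not given in the sources used here. Tk1, thymidine kinase of the DNA precursor salvage route, starts 168 bases inside Afmid on the other strand and had a log2 change of -1.03 ± 0.21 (SE) from young to Trem1-/- labelled libraries (limma, adjusted p = 0.0449). That call was lost without any 1 of 8 libraries (young A, B, C or E, aged wild-type 6, or Trem1-/- labelled 1, 2 or 3), with adjusted p up to 0.166.

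Kmo encodes the mitochondrial monooxygenase that makes 3-hydroxykynurenine, the step at which the pathway commits to the quinolinate branch. Kmo (ENSMUSG00000039783.15, chr1:175620381-175662116, plus strand, 17 merged exons) had 25.3, 27.1, 31.2 and 22.1 normalized counts in young replicates A, B, C and E. It had 47.4, 56.7 and 55.7 in aged wild-type libraries 3, 4 and 6. It had 26.6, 24.8 and 18.4 in Trem1-/- labelled replicates 1, 2 and 3. Each aged wild-type library was above every other library, and the outer groups overlapped. Kmo rose by 0.99 ± 0.20 (SE) on the log2 scale from young to aged wild type (limma, adjusted p = 0.0034). It fell by 1.17 ± 0.22 from aged wild type to Trem1-/- labelled libraries (adjusted p = 0.0054). Both calls were kept in each of the 20 alternatives that tested it.

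Kynu encodes kynureninase, which cleaves kynurenine and 3-hydroxykynurenine to anthranilate and 3-hydroxyanthranilate. Kynu (ENSMUSG00000026866.16, chr2:43555329-43682715, plus strand, 16 merged exons) had 31.4, 25.2, 26.4 and 13.9 normalized counts in young replicates A, B, C and E. It had 106, 64.4 and 97.9 in aged wild-type libraries 3, 4 and 6. It had 21.5, 16.02 and 41.3 in Trem1-/- labelled replicates 1, 2 and 3. The lowest aged wild-type library exceeded the highest of the rest, Trem1-/- labelled replicate 3. Kynu rose by 1.87 ± 0.34 on the log2 scale with age, 3.64-fold (limma, adjusted p = 0.0020), the largest change among the 7 tested members. It fell by 1.81 ± 0.37 in the Trem1-/- labelled libraries against aged wild type (adjusted p = 0.0082). Both calls held in the 20 alternatives that tested Kynu, with adjusted p up to 0.0494 in the second comparison.

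Haao encodes the dioxygenase that turns 3-hydroxyanthranilate into the precursor of quinolinate. Haao (ENSMUSG00000000673.9, chr17:83831156-83847963, minus strand, 10 merged exons) lies on chromosome 17, as does Trem1 (chr17:48232768-48246924). It had 47.1, 64.7, 31.2 and 19.8 normalized counts in young replicates A, B, C and E. It had 182, 74.2 and 113 in aged wild-type libraries 3, 4 and 6. It had 62.3, 28.04 and 40.1 in Trem1-/- labelled replicates 1, 2 and 3. The aged wild-type libraries were again above all others, but replicate 4 exceeded young replicate B by little. Haao rose by 1.61 ± 0.41 with age (limma, adjusted p = 0.0109), which missed the threshold once aged wild-type replicate 3 was left out (1.28, adjusted p = 0.0549). It fell by 1.46 ± 0.44 in the Trem1-/- labelled libraries (adjusted p = 0.0395). That second call did not survive leaving out any 1 of young A, young C, aged wild-type 3, aged wild-type 6, Trem1-/- labelled 2 or Trem1-/- labelled 3 (adjusted p 0.0535 to 0.143).

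Qprt encodes the transferase that converts quinolinate to nicotinic acid mononucleotide and so joins the pathway to NAD synthesis. Qprt (ENSMUSG00000030674.5, chr7:127107114-127122226, minus strand) was read at 9, 5 and 2 reads in aged wild-type libraries 3, 4 and 6. It had 3, 1, 1 and 0 reads in young A, B, C and E, and 0, 2 and 2 in Trem1-/- labelled 1, 2 and 3. The group means were 1.11, 6.26 and 1.30 normalized counts in young, aged wild-type and Trem1-/- labelled libraries, and the groups overlapped. The exact two-sided permutation p was 0.114 against young and 0.20 for Trem1-/- labelled against aged, where 4 against 3 libraries cannot go below 0.0571 and 3 against 3 not below 0.10. The authors' deposited table gives Qprt a log2 fold change of 2.45 (adjusted p = 0.13), read here as aged against young.

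Nampt encodes the rate-limiting enzyme of NAD salvage from nicotinamide. Nampt (ENSMUSG00000020572.8, chr12:32819545-32853349, plus strand) had 171, 172, 148 and 239 normalized counts in young A, B, C and E, 161, 174 and 209 in aged wild-type 3, 4 and 6, and 199, 234 and 206 in Trem1-/- labelled 1, 2 and 3. The groups overlapped. The log2 difference was 0.01 (95% interval -0.35 to 0.36) between aged and young and 0.24 (-0.14 to 0.61) between Trem1-/- labelled and aged wild type (limma, adjusted p = 0.98 and 0.358). Kynu, Kmo and Haao summed were 0.233 to 0.681 times the Nampt count in young libraries, 1.13 to 2.08 times in aged wild type and 0.295 to 0.554 times in Trem1-/- labelled libraries. This ratio within a library does not depend on the size factors. It sets called members over a member that was not called, so its separation of the groups followed from that choice.

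Nadsyn1 encodes NAD synthetase, the last step of the routes from quinolinate and nicotinic acid. Nadsyn1 (ENSMUSG00000031090.14, chr7:143795584-143822849, minus strand) averaged 33.3 ± 6.10 (SD, n = 4), 37.9 ± 4.56 (n = 3) and 34.7 ± 4.22 (n = 3) normalized counts in young, aged wild-type and Trem1-/- labelled libraries. Its libraries overlapped across groups, with a log2 difference of 0.19 (95% interval -0.24 to 0.62) for aged against young. Dhcr7, a cholesterol synthesis gene that starts 296 bases upstream on the other strand, was not called either (log2 difference -0.03, adjusted p = 0.939).

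Nadk encodes cytosolic NAD kinase, which makes NADP. Nadk (ENSMUSG00000029063.16, chr4:155562378-155591001, plus strand, 15 merged exons) had 873, 857, 789 and 773 normalized counts in young A, B, C and E. It had 507, 569 and 558 in aged wild-type 3, 4 and 6. It had 742, 805 and 831 in Trem1-/- labelled 1, 2 and 3. All aged wild-type libraries were below all others, and the outer groups overlapped. Nadk fell by 0.59 ± 0.09 with age (limma, adjusted p = 0.0008) and was higher by 0.54 ± 0.10 in the Trem1-/- labelled libraries than in aged wild type (adjusted p = 0.0050). With abundant RNA classes left out of the scaling these were -0.40 and 0.32 (adjusted p = 0.0077 and 0.0427), and both calls held in all 21 alternatives.

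Cd38 (ENSMUSG00000029084.5, chr5:43868553-43912375, plus strand, 8 merged exons) had 472, 405, 411 and 292 normalized counts in young A, B, C and E. It had 643, 1139 and 615 in aged wild-type 3, 4 and 6, and 666, 546 and 435 in Trem1-/- labelled 1, 2 and 3. The aged wild-type libraries were above all young ones, and Trem1-/- labelled replicate 1 lay among them. Cd38 rose by 0.98 ± 0.23 with age (limma, adjusted p = 0.0074), in all 21 alternatives. The difference of Trem1-/- labelled from aged wild type was -0.50 (95% interval -1.04 to 0.04, limma, adjusted p = 0.174). Without aged wild-type 4, the library with 1139 counts, it was -0.22 (adjusted p = 0.476). With abundant RNA classes left out of the scaling it was -0.72 (limma, adjusted p = 0.0546). It ran from -0.72 to -0.22 over the 21 alternatives and was called in none of them. The difference from young wild type was 0.47 (-0.03 to 0.98, adjusted p = 0.387).

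**Figure D2:**
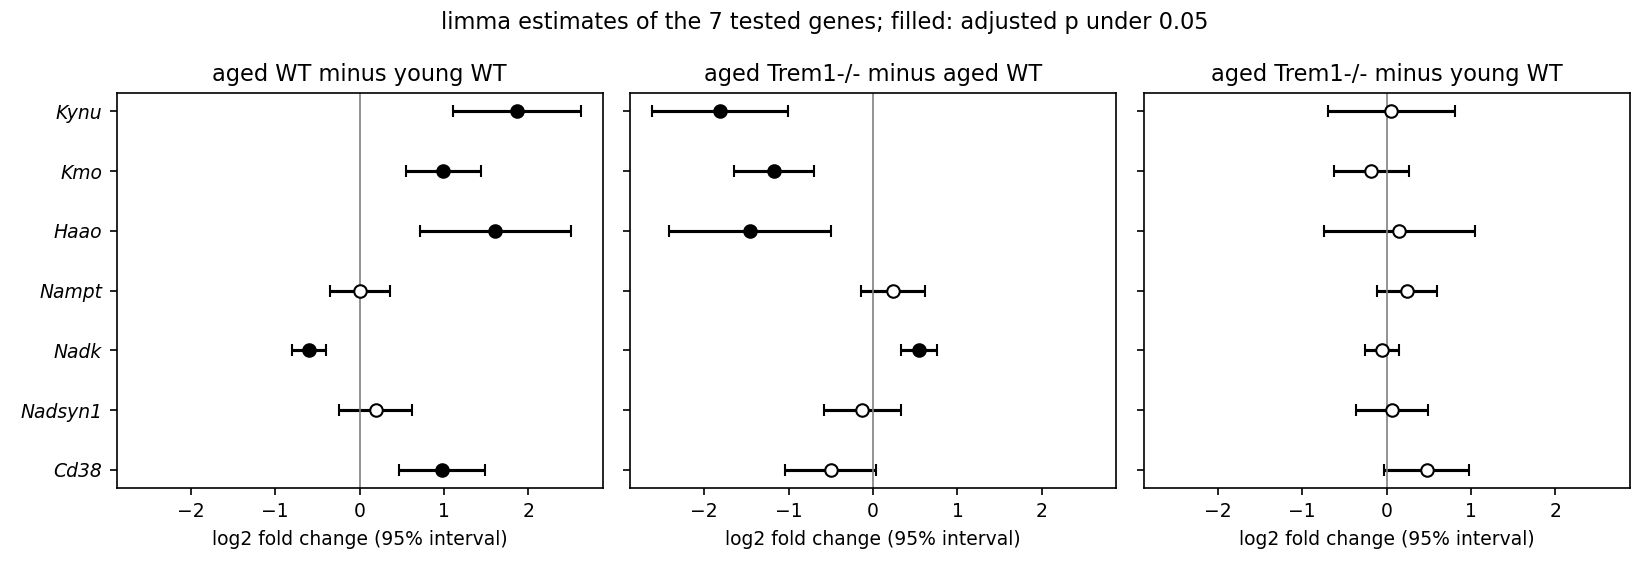
Log2 fold changes (x axis) with 95% intervals of the 7 tested members (y axis) in each of the 3 comparisons, from limma; filled points have an adjusted p under 0.05. Kynu, Kmo and Haao lie right of 0 in the first and left of 0 in the second comparison, Nadk does the reverse, and every interval spans 0 in the third.

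Bst1, a paralog of Cd38 that also encodes an NAD-consuming enzyme, lies next to it (chr5:43818885-43843986, plus strand). Its mean went from 392 ± 59.4 (SD, n = 4) in young to 274 ± 97.3 (n = 3) in aged wild-type and 552 ± 80.2 (n = 3) normalized counts in Trem1-/- labelled libraries. Bst1 was higher by 1.05 ± 0.22 on the log2 scale in Trem1-/- labelled than in aged wild-type libraries (limma, adjusted p = 0.0090), and its difference between aged and young was -0.56 ± 0.21 (adjusted p = 0.0563). The Cd38 to Bst1 ratio of counts was 0.780 to 1.26 in young, 2.55 to 3.24 in aged wild-type and 0.934 to 1.07 in Trem1-/- labelled libraries. The aged wild-type ratios thus did not overlap the others (exact two-sided permutation p = 0.0571 and 0.10, the smallest these sample numbers allow). This ratio was chosen after the values were seen, so these p-values do not measure support for its separation of the groups.

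Per kilobase of exon, the members differed widely in level. In young libraries the mean levels were 220 normalized counts per kilobase for Nadk, 102 for Cd38 and 36.1 for Nampt, with no overlap between these 3 genes. Below them came Nadsyn1 (10.1), Haao (8.69), Kmo (5.59), Kynu (3.94), Afmid (1.61), Ido1 (0.986) and Qprt (0.419), each overlapping its neighbour in this order. In aged wild type the levels were 205 for Cd38, 145 for Nadk, 35.9 for Nampt, 26.3 for Haao, 14.6 for Kynu, 11.5 for Nadsyn1 and 11.3 for Kmo. There Cd38 was above Nadk in every library, while Nampt and Haao overlapped. Nadk (212) was again above Cd38 (141) in Trem1-/- labelled libraries, followed by Nampt (42.2), Nadsyn1 (10.48), Haao (9.29), Kmo (4.92) and Kynu (4.27).

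Promoter windows in RefSeq (GRCm38.p6, 250 bases before to 50 after a start) matched 8 of the 10 members; Ido1 and Kynu had none. They are shown for Kmo, Haao and Cd38, which rose with age, and for a start of Nadk, which fell. Capitals mark GAGGAAGT, the core bound by PU.1, a factor of macrophage and B cell identity. The strands are plus for Kmo (chr1:175631943-175632242), minus for Haao (chr17:83846741-83847040), and plus for Cd38 (chr5:43868559-43868858) and Nadk (chr4:155562131-155562430). The Kmo, Haao and Cd38 windows lie inside the gene spans given above, so their starts are not the outermost annotated ones.
Kmo: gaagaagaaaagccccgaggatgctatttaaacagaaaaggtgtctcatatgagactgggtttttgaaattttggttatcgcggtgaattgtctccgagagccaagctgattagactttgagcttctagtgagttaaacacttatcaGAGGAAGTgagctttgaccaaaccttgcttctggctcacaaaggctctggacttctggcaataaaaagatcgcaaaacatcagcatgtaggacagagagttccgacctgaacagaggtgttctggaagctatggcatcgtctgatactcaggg
Haao: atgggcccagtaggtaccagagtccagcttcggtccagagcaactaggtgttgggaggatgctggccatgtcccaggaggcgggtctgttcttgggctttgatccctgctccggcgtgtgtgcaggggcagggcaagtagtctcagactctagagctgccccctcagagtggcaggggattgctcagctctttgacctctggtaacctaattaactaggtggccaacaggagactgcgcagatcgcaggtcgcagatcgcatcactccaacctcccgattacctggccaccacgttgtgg
Cd38: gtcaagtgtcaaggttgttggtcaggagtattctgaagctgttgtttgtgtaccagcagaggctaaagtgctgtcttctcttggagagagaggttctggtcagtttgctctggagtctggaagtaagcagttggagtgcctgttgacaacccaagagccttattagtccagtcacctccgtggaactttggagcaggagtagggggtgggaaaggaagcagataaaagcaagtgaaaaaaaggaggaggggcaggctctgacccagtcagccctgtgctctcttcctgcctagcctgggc
Nadk: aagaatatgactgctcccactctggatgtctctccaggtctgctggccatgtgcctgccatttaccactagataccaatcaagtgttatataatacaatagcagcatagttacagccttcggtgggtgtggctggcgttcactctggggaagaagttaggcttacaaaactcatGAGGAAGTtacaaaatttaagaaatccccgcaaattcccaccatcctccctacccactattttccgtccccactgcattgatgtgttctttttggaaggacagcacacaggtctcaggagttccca

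The PU.1 core was found 103 bases before this internal Kmo start and 76 bases before this Nadk start, so it occurs in a member that rose and in a member that fell. It is in 3.20% of the 32851 mouse promoter windows on either strand. Neither Haao nor Cd38 held it, nor any of the other 6 motifs searched, also on both strands and with overlaps allowed. The TATA box (TATAAA) is in 13.6% of windows and the GC box (GGGCGG) in 35.7%. The E-box (CACGTG) is in 7.15% and the AHR response element (TNGCGTG) in 5.07%. The interferon-gamma activated site (TTCNNNGAA) is in 8.30% and the interferon-stimulated response element, searched by its usual consensus, in 3.44%. Qprt held TTCTGGGAA, a match to the interferon-gamma activated site, 19 bases before its start. A second Nadk start (chr4:155563565-155563864) held a PU.1 core, a GC box, an E-box and an AHR response element. Nampt held 5 GC boxes, Nadsyn1 held 2 and Afmid held 1. The windows of Nampt (76.3% GC, 36 CpG) and Nadsyn1 (65.7%, 27 CpG) were richer in CpG than those of Cd38 (51.7%, 1 CpG), Kmo (44.3%, 7 CpG), Haao (58.7%, 10 CpG) and the Nadk start shown (46.7%, 4 CpG). The median over all windows was 52.7% GC and 7 CpG.

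Other genes of the pathway were followed in 6 lists, of which 55 genes were tested. With age 14 of these 55 were called by limma, beside 33.3% of all tested genes, and in Trem1-/- labelled against aged wild type 11, beside 18.4%. Of 7 other kynurenine pathway genes only Got2, an aminotransferase, was read enough to test, and it was not called (log2 difference 0.01 for aged against young). Of 10 genes for tryptophan transport or other use, 8 were tested. Slc7a8, a transporter of neutral amino acids, fell by 1.27 ± 0.20 with age (limma, adjusted p = 0.0009), from 223 ± 23.3 (SD, n = 4) to 95.9 ± 37.4 (n = 3) normalized counts, and Slc16a10, an aromatic amino acid transporter, fell by 0.96 ± 0.30 (adjusted p = 0.0277). Slc7a8 was higher by 0.70 ± 0.22 in Trem1-/- labelled than in aged wild-type libraries (adjusted p = 0.0434). Slc16a10 lost its call without young A, young E, aged wild-type 3 or aged wild-type 6 (adjusted p up to 0.118), and the second Slc7a8 call was lost without any 1 library but aged wild-type 4 (up to 0.15).

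Of 17 other genes of NAD synthesis and salvage, 8 were tested, and with age 1 rose and 2 fell, 3 of 8 beside 33.3% of all tested genes called. Naprt, which uses nicotinic acid, rose by 1.04 ± 0.30 (limma, adjusted p = 0.0210; lost without young E or aged wild-type 6, up to 0.0673). Pnp, a purine and nicotinamide riboside phosphorylase, fell by 0.63 ± 0.16 (adjusted p = 0.0102). Nt5e, the ectonucleotidase CD73, fell by 0.51 ± 0.13 (adjusted p = 0.0124; 0.0556 without aged wild-type 3). Nt5e was higher by 1.04 ± 0.14 in Trem1-/- labelled than in aged wild-type libraries, from 330 ± 44.1 to 675 ± 62.5 normalized counts (SD, n = 3 each; adjusted p = 0.0018, kept in all alternatives). Pnp rose by 0.69 ± 0.17 (adjusted p = 0.0177; lost without aged wild-type 3, Trem1-/- labelled 1 or Trem1-/- labelled 2, up to 0.0653).

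Of 28 other NAD-consuming genes, mostly sirtuins and PARPs, 25 were tested, and 3 rose and 2 fell with age. Those are smaller shares than the 14.3% and 19.0% of all tested genes, and the medians were 0.16 in the list and -0.02 in all tested genes. Parp1, the DNA damage sensor, rose by 0.47 ± 0.12, Parp4 by 0.76 ± 0.16 and Parp10 by 0.43 ± 0.13 (limma, adjusted p = 0.0087, 0.0043 and 0.0273). Parp12 fell by 0.84 ± 0.15 (adjusted p = 0.0015) and Tnks by 0.34 ± 0.12 (adjusted p = 0.0476). In Trem1-/- labelled against aged wild type, Parp12 rose by 0.78 ± 0.16 (adjusted p = 0.0081) beside Bst1. There Parp1 fell by 0.53 ± 0.12, the mitochondrial deacylase gene Sirt3 by 0.95 ± 0.28 and Parp10 by 0.47 ± 0.14 (adjusted p = 0.0146, 0.0381 and 0.0398). With age, Parp10 lost its call without young C, young E or any aged wild-type library (up to 0.0698), and Tnks without any 1 library but young B and aged wild-type 4 (up to 0.17). In the second comparison, Parp1 lost its call without aged wild-type 3, aged wild-type 6 or Trem1-/- labelled 2 (up to 0.0569), Sirt3 without any 1 library but young C and E (up to 0.102) and Parp10 without any but young B and E (up to 0.114). Tnks, and Parp10 in the second comparison, are named here after their values were seen.

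Of 9 genes of the aryl hydrocarbon receptor, which kynurenine is known to bind, and its targets, 4 were tested and 0 were called by limma in either comparison; 2 had an unadjusted p under 0.05 with age and 0 in Trem1-/- labelled against aged. By edgeR the calls were also 0, while DESeq2 called 1 with age, the receptor gene Ahr itself, named here after its values were seen. Its mean was 22.4 ± 6.76 (SD, n = 4) in young and 58.0 ± 14.9 (n = 3) in aged wild-type libraries, a log2 difference of 1.35 ± 0.49 (limma, adjusted p = 0.0533). Of 15 genes of interferon-gamma signalling, 10 were tested. With age limma called 4 of these 10, beside 33.3% of all tested genes. By edgeR and DESeq2 7 of the 10 were called, adding Irf1, Irf8 and Jak2 as higher. Those tools called 3753 and 3740 of the 11506 genes tested. With age the receptor genes Ifngr1 and Ifngr2 fell by 0.50 ± 0.10 and 0.75 ± 0.16 (limma, adjusted p = 0.0029 and 0.0042), while Ciita, the activator of MHC class II genes, rose by 1.24 ± 0.20 and the kinase gene Jak1 by 0.29 ± 0.09 (adjusted p = 0.0010 and 0.0230). In Trem1-/- labelled against aged wild type, Ifngr1 and Ifngr2 rose by 0.48 ± 0.11 and 0.55 ± 0.17 and the transcription factor gene Irf8 fell by 0.54 ± 0.17 (adjusted p = 0.0117, 0.0449 and 0.0457). Jak1 lost its call without young C, young E or aged wild-type 3 (up to 0.0618), Ifngr2 in the second comparison without any 1 library but young C and Trem1-/- labelled 3 (up to 0.151), and Irf8 without any but young E and aged wild-type 3 (up to 0.121). Between Trem1-/- labelled and young wild-type libraries, 0 of the 55 tested genes in these 6 lists were called by limma or edgeR, with 7 and 8 at an unadjusted p under 0.05, where 0.921% of all tested genes were called by limma. DESeq2 called 1, Nt5e.

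**Figure D3:**
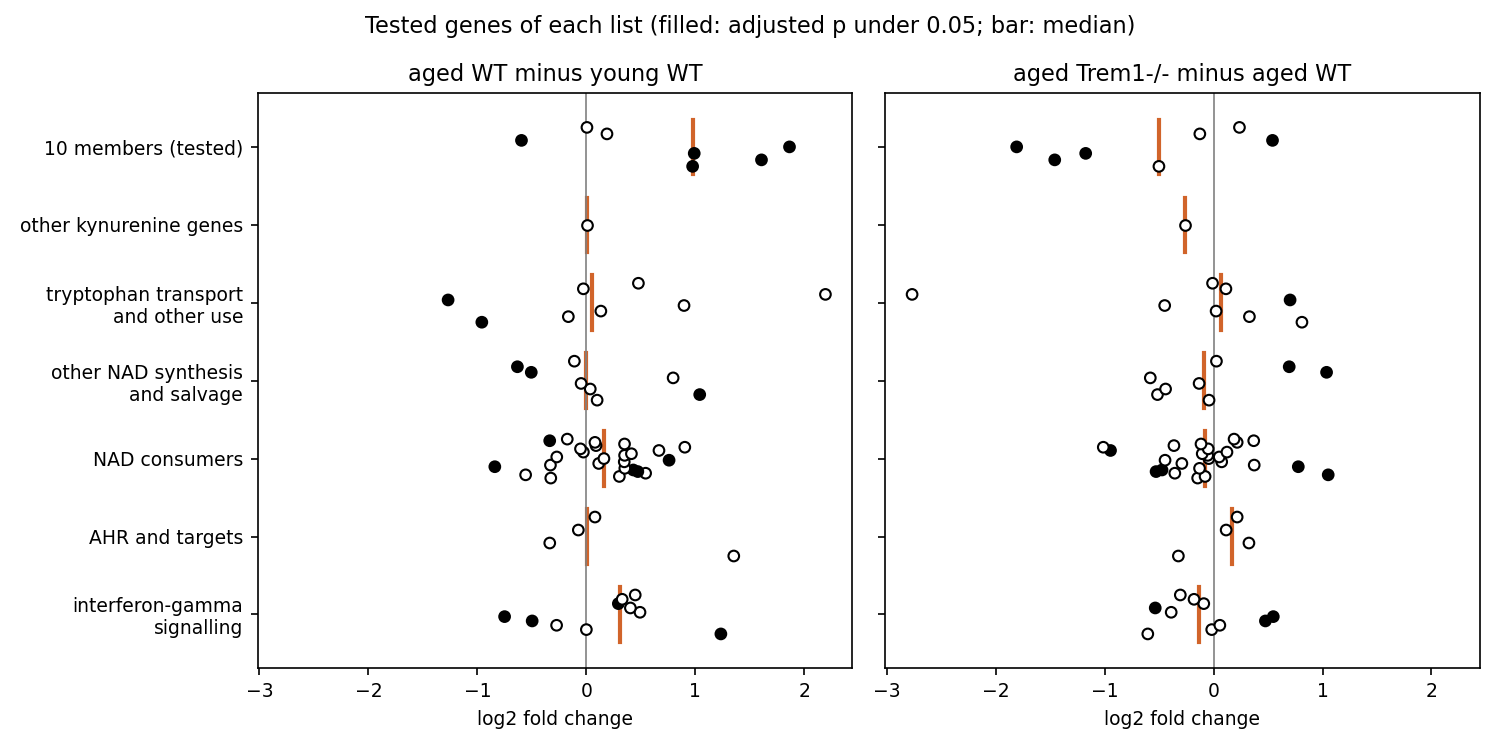
Log2 fold changes (x axis) of the tested genes in the members and the 6 pathway lists (y axis), 1 point per gene and comparison, filled where the limma adjusted p is under 0.05, with a bar at each list's median. The member medians are 0.98 for aged against young and -0.50 for Trem1-/- labelled against aged wild type. The medians of the 6 other lists run from -0.01 to 0.31 and from -0.26 to 0.17. The -0.26 is the value of Got2, the only gene tested in its list. Members and lists were chosen with earlier results of these data known.

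B cell markers moved in the same direction across groups as the members that rose with age, but so did markers of other cells. With age, 8 of 8 tested T and NK cell markers and 5 of 6 tested erythroid markers were called higher. In Trem1-/- labelled against aged wild type, 6 and 5 of these were called lower. Per 1000 counts of the B cell marker sum, Kynu was 8.52 to 12.01 in young, 8.92 to 9.54 in aged wild-type and 4.79 to 6.36 in Trem1-/- labelled libraries. Per B cell marker count, then, the young and aged wild-type values of Kynu overlapped. Its Trem1-/- labelled values lay below both. Haao gave 13.5 to 21.8, 10.9 to 15.3 and 6.18 to 13.9, and Kmo 9.15 to 16.5, 3.97 to 8.41 and 2.83 to 8.71. Kmo was thus lower in every aged wild-type than in every young library on that scale. Cd38 gave 137 to 217, 53.9 to 169 and 66.9 to 192. Within the aged wild-type group, Cd38 was highest in replicate 4, which had the lowest B cell sum and the highest macrophage and erythroid sums. Kynu and Haao were lowest there. Kmo was at 56.7 in replicate 4 and nearly the same, 55.7, in replicate 6 (52 and 62 reads).

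Nadk moved with the macrophage markers, which fell more. Per 1000 counts of the macrophage marker sum, Nadk was 9.47 to 11.6 in young, 14.6 to 20.6 in aged wild-type and 9.76 to 12.8 in Trem1-/- labelled libraries, so on that scale it was highest in aged wild type. Most of that sum was Lyz2, at 54625 to 61447, 16977 to 26847 and 47328 to 64105 normalized counts, so the scale follows mainly this gene. Per 1000 macrophage marker counts, Kynu was 0.171 to 0.417 in young, 1.65 to 4.31 in aged wild-type and 0.194 to 0.638 in Trem1-/- labelled libraries. Kmo, Haao and Cd38 were also highest in aged wild type on that scale. These ratios to marker sums were chosen after the marker values were seen. The part of cell composition in the members' changes was not tested.

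**Figure D4:**
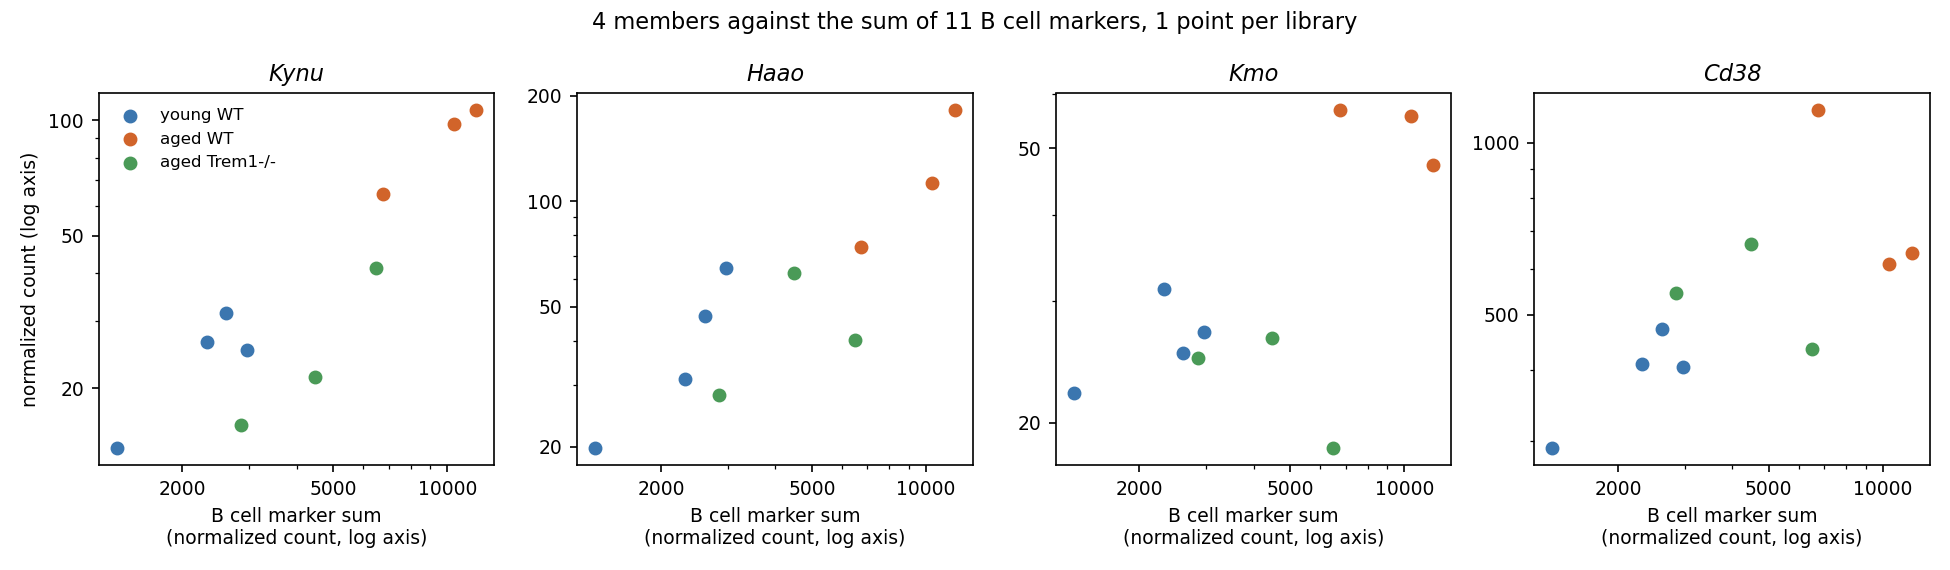
Normalized counts (y axis, log scale) of 4 members against the summed normalized count of 11 B cell markers (x axis, log scale), 1 point per library coloured by group. The 3 aged wild-type libraries lie at the highest B cell sums, 6749 to 11915, and the Trem1-/- labelled libraries at 2851 to 6496 lie at Kynu counts of 16.02 to 41.3.

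By root-mean-square difference of centred log2 profiles over the 10 libraries, the profiles most like Kynu were those of Gm37943 (0.24), Pecam1 (0.25) and Sox5 (0.26), against 0.95 for the spread of Kynu itself. The nearest to Haao were Gm49502 (0.20), Sh2d3c (0.23) and Cyp4f18 (0.24), with a Haao spread of 0.90. The nearest to Kmo were Dennd2d (0.19), 5031425E22Rik (0.21) and Fam204a (0.22), with a spread of 0.53. Nadk was closest to Qser1 (0.05), Ipmk (0.07) and Plcb3 (0.07), with a spread of 0.27. For Cd38 they were A130071D04Rik (0.23), Tatdn1 (0.24) and Birc2 (0.26), with a spread of 0.51. None of the members was among the 3 nearest profiles of another.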

How the data were processed

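RNA came from primary mouse peritoneal macrophages; per the labels' protocols it was extracted with a Qiagen RNeasy kit, copied with a stranded Takara kit and made into sequencing libraries with NEBNext Ultra reagents. GRCm38 is the build, and DESeq2 1.20.0, featureCounts 1.5.0-p3, STAR and fastp are the tools named, per the submitters' processing notes; role, settings, annotation and strand use remain not given in the sources used here. The authors deposited 1 table with a column of normalized counts for each library and a column of their mean (a signal unit), in which 17593 of 54532 genes held no read. Per the file headers it also holds the authors' comparison of aged with young wild type as a log2 fold change with its error, a score (the Wald statistic) and a p-value with its adjusted p-value. Each library column held whole multiples of 1 number for 100% of values (tolerance 1e-06), from which whole read counts were recovered. Floors cover counting error only, whereas the 95% intervals are from limma and reflect the spread between libraries.

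Groups and replicate names come from the labels. All 10 libraries entered 1 limma-trend model with 3 groups, run in R 4.3.3 with limma 3.58.1. It was fitted to log2(normalized count + 1) of genes averaging at least 10, with Benjamini-Hochberg adjustment over 11506 genes per comparison at 0.05; the code was tested on simulated data. Members below that mean were compared by exact permutation tests. Replicates of a group differed by 4.89 to 24.4 chi-square per degree of freedom, so none was counted as a repeat. Symbols matched GENCODE M21 on GRCm38 for 98.6% of genes; exons were merged per gene. Alternatives were pseudocounts of 0.5 and 5, no filter, a mean of at least 50, TMM factors, scaling without mitochondrial, immunoglobulin and haemoglobin genes and Gm26917, edgeR 4.0.16 and DESeq2 1.42.0 on the recovered reads, only the 2 groups compared, array weights, each library left out in turn, and, added after seeing the marker sums, leaving out young C and Trem1-/- labelled 2.

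All members were named. From each pathway list (other kynurenine genes, tryptophan transport and use, NAD synthesis and salvage, NAD consumers, AHR, interferon-gamma), up to 4 called genes with the smallest adjusted p were named per comparison, and for each called member the 3 genes with the nearest profile; genes starting within 1000 bases of a member on the other strand were named too. Members, lists and markers were chosen with earlier results of these data known.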

Additional observations from a re-analysis of the deposited data

How the results depend on the processing

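Of the members, Kynu, Kmo and Nadk in both comparisons with aged wild type, and Cd38 with age, kept direction and call in every alternative that tested them; Haao is the exception described above, and without young C and Trem1-/- labelled 2 together its second call was also lost (adjusted p = 0.163). At a mean of at least 50, Kynu and Kmo were no longer tested, so 2 members were called higher with age and 1 lower in Trem1-/- labelled against aged wild type. Leaving out each library gave 3 to 4 members higher and 1 lower with age, 1 higher and 2 to 3 lower in Trem1-/- labelled against aged, and 0 in Trem1-/- labelled against young. Genes called then ranged from 2753 to 4161, from 1077 to 2800 and from 0 to 268, the last being 0 without Trem1-/- labelled replicate 3, beside 3837, 2112 and 106 in all libraries. In Trem1-/- labelled against aged wild type, 1171 genes were called with only the 2 groups compared and 819 without young C and Trem1-/- labelled 2. Against young wild type the 106 became 263 with no filter, 36 at a mean of at least 50, 448 with DESeq2, 299 with only the 2 groups compared, 276 with array weights and 18 without those 2 libraries. Named list genes also lost calls, in the same direction, when abundant RNA classes were left out of the scaling (Slc16a10, Nt5e and Tnks with age; Slc7a8, Pnp, Ifngr1 and Ifngr2 in Trem1-/- labelled against aged), and without young C and Trem1-/- labelled 2 (Parp10, Jak1 and Tnks; Slc7a8, Pnp, Parp1, Parp10, Sirt3, Ifngr1, Ifngr2 and Irf8). Further calls were lost with only the 2 groups compared (Tnks; Slc7a8, Parp1, Parp10, Sirt3, Ifngr2 and Irf8), with no filter (Parp10, Jak1 and Tnks; Parp10, Sirt3, Ifngr2 and Irf8) and with TMM factors (Tnks; Slc7a8 and Ifngr2), the genes before each semicolon being those with age. Neither edgeR nor DESeq2 called Tnks or the second Slc7a8 difference, edgeR did not call Slc16a10 and DESeq2 did not call Sirt3. No result reversed a call. No paired analysis was possible because the groups compared share fewer than 2 replicate names. Depth limited Ido1, Afmid and Qprt, which had 0 to 19 reads per library.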
